A study of Mus musculus with 6 samples.

Results

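Immunoglobulin gene segments, the variable, diversity, joining and constant pieces from which antibody chains are built, were described in T cell cultures of SLE1.2.3 and control mice. They were taken as all rows of the deposited FPKM table (fragments per kilobase of feature per 1000000 assigned reads) whose biotype starts with IG_. This gave 248 of 33300 features. The heavy chain locus on chromosome 12 held 126 of them, the kappa locus on chromosome 6 held 112, the lambda locus on chromosome 16 held 9, and 1 variable pseudogene lay on chromosome 19. By kind they were 195 variable genes, 23 variable pseudogenes, 13 constant genes, 11 joining genes, 5 diversity genes and 1 diversity pseudogene.

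The libraries came from 3 SLE1.2.3 mice, a lupus-prone genotype, and 3 control mice labelled WT, all of them female and matched for age. Naive CD4 T cells of each mouse were grown for 5 days on plates coated with antibodies to CD3 and CD28. The medium held antibodies to IL-4 and to IFNγ at 10 μg/mL each, TGFβ1 at 1 ng/mL, IL-23 at 10 ng/mL, IL-6 at 50 ng/mL and IL-1β at 10 ng/mL, conditions that drive Th17 cells, and polyA RNA was then sequenced. As background, the SLE1.2.3 genotype joins lupus susceptibility intervals on chromosomes 1, 4 and 7, so that none of the immunoglobulin loci lies on a chromosome that carries an interval, and each library measured a whole culture in bulk.

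In B cells the heavy chain gene is assembled from variable, diversity and joining segments and the light chain genes from variable and joining segments, and the joined exon is spliced to a constant gene. The constant gene sets the antibody class: Ighm and Ighd give IgM and IgD, and class switch replaces them by an Ighg, Ighe or Igha gene downstream. T cells are known to transcribe the unrearranged Ighm region without joining a variable segment, whereas spliced kappa chains and switched classes are known from B cells and plasma cells.

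The recovered depth, in units of 1000000 assigned reads, was 83.5, 61.7 and 75.2 in SLE1.2.3 mice 1, 2 and 3, against 50.4, 56.8 and 29.7 in control mice 1, 2 and 3. A floor of 3 reads corresponded to 0.0359 to 0.0486 reads per 1000000 assigned reads (RPM) in SLE1.2.3 libraries and to 0.0528 to 0.101 in control libraries. Immunoglobulin segments with at least 1 read numbered 177, 155 and 158 in SLE1.2.3 mice 1, 2 and 3, against 40, 39 and 38 in control mice 1, 2 and 3. No read fell on 30 segments in any library. With 0 reads in all 3 controls and at least 1 read in each SLE1.2.3 library there were 68 segments, and 419 of all 33300 features. With 0 reads in all SLE1.2.3 libraries and a read in at least 1 control there were 6 segments, and 1797 of all features.

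Reads on immunoglobulin segments made up a larger share of SLE1.2.3 libraries, and which segments held them differed between the groups. All segments together took 281, 284 and 451 RPM in SLE1.2.3 mice 1, 2 and 3, against 106, 119 and 116 in control mice 1, 2 and 3. The groups did not overlap, and the means were 338 ± 97.1 in SLE1.2.3 and 114 ± 7.08 in control libraries (SD, n = 3 each), a ratio of 2.98. Summed as FPKM, which weights short segments more, the segments came to 354, 384 and 684 in SLE1.2.3 mice 1, 2 and 3, against 99.9, 91.3 and 97.0 in control mice 1, 2 and 3, a ratio of means of 4.93. In the bulk libraries, a difference in the number of cells of a type and a difference in RNA per cell cannot be told apart. The constant gene Ighm alone held 49.8%, 23.3% and 9.67% of these reads in SLE1.2.3 mice 1, 2 and 3, against 95.4%, 96.0% and 94.9% in control mice 1, 2 and 3. Without Ighm the other 247 segments took 141, 218 and 407 RPM in the SLE1.2.3 mice, against 4.87, 4.82 and 5.92 in the control mice. SLE1.2.3 mouse 3 was the highest library and mouse 1 the lowest of its group for the segments other than Ighm, and the reverse held for Ighm within the group.

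By locus, the kappa segments took 57.9, 88.8 and 162 RPM in SLE1.2.3 mice 1, 2 and 3, against 1.01, 0.598 and 1.58 in control mice 1, 2 and 3, with 22533 and 132 reads in all. The heavy locus took 221, 194 and 287 RPM in the SLE1.2.3 mice, against 104, 119 and 114 in the control mice, and most of the control reads were Ighm. Lambda segments, which make the minor light chain of the mouse, took 1.45, 1.05 and 1.44 RPM in the SLE1.2.3 mice, against 0.338, 0.0880 and 0.0336 in the control mice.

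**Figure D1:**
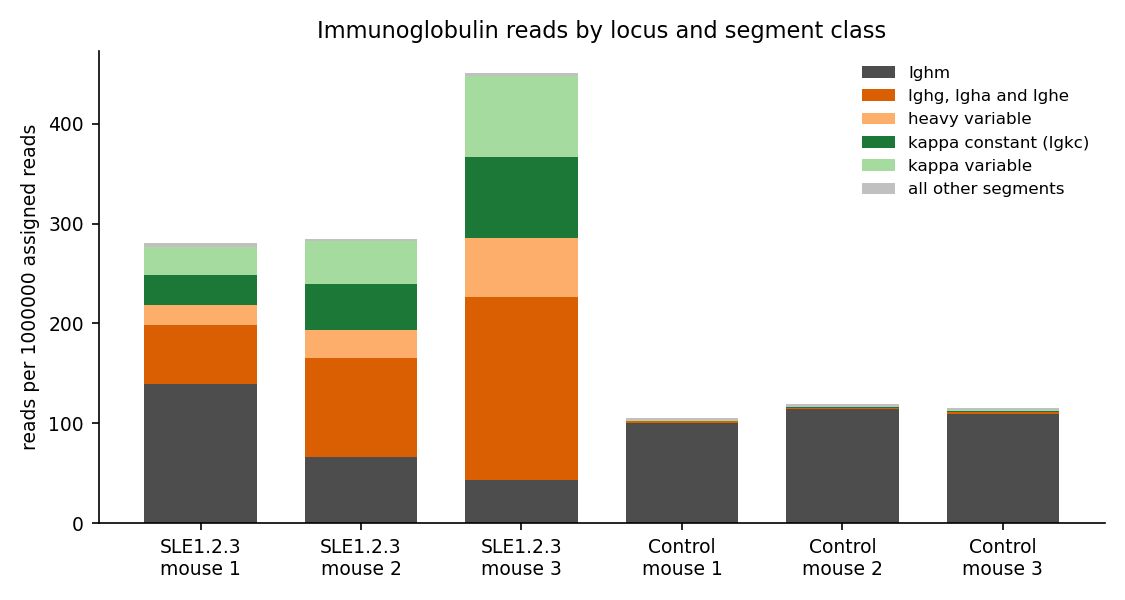
Stacked bars give the reads per 1000000 assigned reads on immunoglobulin segments in each library, split by locus and segment class, with the 3 SLE1.2.3 mice left of the 3 control mice. Control bars stand between 106 and 119 and are almost wholly Ighm, while the SLE1.2.3 bars stand between 281 and 451 with kappa, variable and switched constant reads above Ighm.

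SLE1.2.3 and control libraries were compared with limma on the log2(FPKM + 1) scale, for genes that averaged 1 FPKM or more over all 6, and adding 1 shrinks the change of genes at low FPKM. Of the 248 segments 59 were tested, 31 heavy and 28 kappa, and 39 passed an adjusted p of 0.05, all 39 higher in SLE1.2.3. Over all 11378 genes tested 15.2% passed, 9.65% as higher and 5.58% as lower. Of the 59 tested segments 52 were below 1 FPKM in every control library and so entered the test only through the SLE1.2.3 libraries, which fixed their direction, and the count is no measure of how often segments differ. Among the remaining 7 tested segments, Igkc was higher and Ighm, the 4 heavy joining genes and Ighd4-1 did not pass. No segment was lower at the adjusted threshold in limma, in limma voom on the recovered reads or at an unadjusted p under 0.05, where the counts were 0, 0 and 0. With array weights, which let libraries differ in weight, 5 were lower, namely Ighm, Ighj2, Ighj3, Ighj4 and Ighd4-1, and without SLE1.2.3 mouse 1 Ighm and Ighj2 were lower. The number of segments called fell to 20 without SLE1.2.3 mouse 2 and to 11, 10 and 11 without control mouse 1, 2 or 3, in fits that left 1 group with 2 libraries. SLE1.2.3 mice 2 and 3 stood apart from mouse 1 in T cell genes given further on, and with both left out 50 segments passed, the lone library taken to vary like the controls. With every segment that had a read tested, 24 of 218 passed, of which 15 were among the 39.

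Of the 218 segments with a read, 108 had every SLE1.2.3 library above every control and 0 had every SLE1.2.3 library below. This non-overlap of the groups needs no filter. Over all 30034 features with a read, 4507 (15.0%) were higher and 3278 were lower without overlap. The 108 comprised 55 heavy, 49 kappa and 4 lambda segments. SLE1.2.3 libraries were deeper, and a segment with 0 reads in a shallow library can have escaped detection there.

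Apart from Ighe, the switched heavy chain constant genes were far above the controls in every SLE1.2.3 library. The 5 that were tested, Ighg2c, Ighg1, Ighg2b, Ighg3 and Igha, were below 1 FPKM in every control. The filter on mean FPKM thus fixed their direction. Ighg2c, which encodes the IgG2c heavy chain, had 12.5, 34.1 and 54.1 FPKM in SLE1.2.3 mice 1, 2 and 3, against 0.015, 0.027 and 0.101 FPKM in control mice 1, 2 and 3. Its log2 change was 4.82 with a standard error of 0.48 and an adjusted p of 0.00543, and it rested on 9567 reads in SLE1.2.3 and 7 reads in control libraries. Ighg1, the IgG1 gene, had 3.84, 7.82 and 13.2 FPKM in the SLE1.2.3 mice, against 0.061, 0.088 and 0.104 FPKM in the control mice. The log2 change of Ighg1 was 2.96 ± 0.36 (SE, adjusted p = 0.00844). For both genes the lowest SLE1.2.3 library lay far above the highest control.

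Ighg2b, the IgG2b gene, had 3.20, 5.75 and 6.52 FPKM in SLE1.2.3 mice 1, 2 and 3, against 0.193, 0.184 and 0.239 FPKM in control mice 1, 2 and 3 (log2 change 2.31 ± 0.22 SE, adjusted p = 0.00494). Ighg3, the IgG3 gene, had 2.94, 2.91 and 14.9 FPKM in the SLE1.2.3 mice, against 0, 0.021 and 0.027 FPKM in the control mice (log2 change 2.62 ± 0.54 SE, adjusted p = 0.0284). SLE1.2.3 mouse 3 stood far above mice 1 and 2 for Ighg3, and the call was lost when SLE1.2.3 mouse 2 or any 1 of the controls was left out. Igha, the IgA gene, had 6.03, 4.31 and 8.18 FPKM in the SLE1.2.3 mice, against 0.164, 0.026 and 0.063 FPKM in the control mice (log2 change 2.69 ± 0.20 SE, adjusted p = 0.00243). Within the SLE1.2.3 group Igha had the narrowest spread of these genes relative to its mean, with 6.17 ± 1.94 FPKM in SLE1.2.3 and 0.0843 ± 0.0714 FPKM in control libraries (SD, n = 3 each). The calls of Ighg2c, Ighg1, Ighg2b and Igha held without each library in turn. By limma voom on the recovered reads the log2 change of Ighg2c was 9.43 and its adjusted p, 0.0509, just missed the threshold of 0.05.

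Ighe, the IgE gene, was near its floor, with 1 read in each SLE1.2.3 library and 0 in the controls. Of the summed FPKM of the switched genes, Ighg2c made up 43.8%, 62.1% and 55.8% in SLE1.2.3 mice 1, 2 and 3. Ighg1 made up 13.5%, 14.2% and 13.6%, Igha 21.1%, 7.84% and 8.44%, and Ighg3 10.3%, 5.30% and 15.4%, so that the gene after Ighg2c was Igha in mouse 1, Ighg1 in mouse 2 and Ighg3 in mouse 3. The annotated length of Ighg2c is 1326 bases against 2512 to 2678 bases for the other Ighg genes and Igha, so its FPKM is raised relative to theirs for the same number of reads. In RPM Ighg2c still led in each SLE1.2.3 library, at 16.5, 45.3 and 71.7, followed in mouse 1 by Igha at 16.1 and in mice 2 and 3 by Ighg1 at 20.3 and Ighg3 at 37.4.

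The 4 Ighg genes were identical in coding sequence by 74.1% to 85.7%, most so between Ighg2c and Ighg2b. A known difference between them is the hinge, the flexible exon between the antigen-binding arm and the tail that carries the cysteines joining the heavy chains. The hinge exons are shown because they tell apart the classes whose levels are compared here. They are exon 2 of 4 in the GENCODE M21 transcripts, mm10, minus strand, 5′ to 3′, at chr12:113288263-113288325 for Ighg2c, chr12:113329844-113329882 for Ighg1, chr12:113360529-113360576 for Ighg3 and chr12:113307261-113307326 for Ighg2b, with the cysteine codons in capitals.
Ighg2c: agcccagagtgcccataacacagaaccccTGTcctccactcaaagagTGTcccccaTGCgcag
Ighg1: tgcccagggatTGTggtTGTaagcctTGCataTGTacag
Ighg3: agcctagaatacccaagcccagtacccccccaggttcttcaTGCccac
Ighg2b: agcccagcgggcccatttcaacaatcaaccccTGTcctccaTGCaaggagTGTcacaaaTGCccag
The exons are 63, 39, 48 and 66 bases long and hold 3, 4, 1 and 4 cysteine codons in the order shown.

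**Figure D2:**
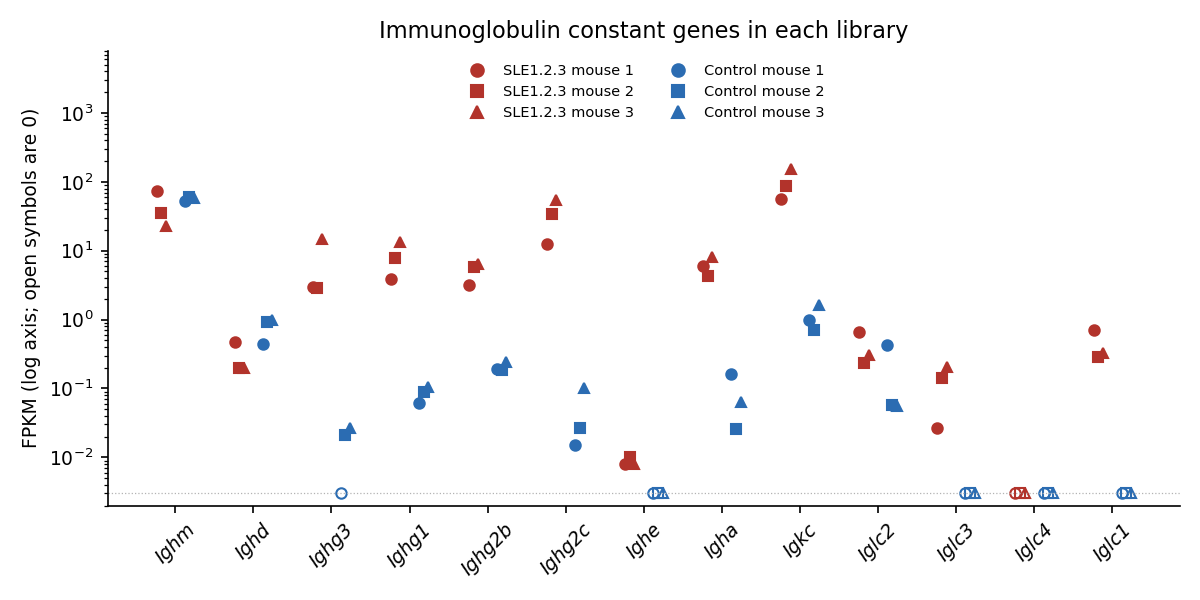
FPKM of the 13 constant genes in each library on a log axis, SLE1.2.3 mice left and control mice right of each gene, with open symbols for 0. Ighg2c at 12.5 to 54.1 in SLE1.2.3 and 0.015 to 0.101 in control libraries shows a wide gap, and the groups overlap for Ighm, Ighd and Iglc2.

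Ighm and Ighd did not follow the switched genes. Ighm, the IgM heavy chain gene, had 74.1, 35.1 and 23.1 FPKM in SLE1.2.3 mice 1, 2 and 3, against 53.4, 60.7 and 58.2 FPKM in control mice 1, 2 and 3. SLE1.2.3 mouse 1 was above all controls and mice 2 and 3 were below them, and the log2 change of -0.54 ± 0.39 (SE) did not pass (adjusted p = 0.361). Without SLE1.2.3 mouse 1 the change was -0.99 and passed as lower (adjusted p = 0.00724), and with SLE1.2.3 mouse 1 alone it was 0.36 (adjusted p = 0.113, on the same assumption). The control libraries lay close together at 57.4 ± 3.69 FPKM, against 44.1 ± 26.7 FPKM in SLE1.2.3 libraries (SD, n = 3 each). Ighd, the IgD gene, had 0.479, 0.196 and 0.196 FPKM in the SLE1.2.3 mice, against 0.439, 0.917 and 0.991 FPKM in the control mice, and was too low to be tested at the filter. Of the summed FPKM of all heavy constant genes, Ighm made up 71.9%, 38.9% and 19.2% in the SLE1.2.3 mice and 98.4%, 98.0% and 97.4% in the control mice.

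Variable segments accompanied the switched genes in number and not Ighm. The heavy variable segments held 1698, 1716 and 4458 reads in SLE1.2.3 mice 1, 2 and 3, against 15, 16 and 9 in control mice 1, 2 and 3. Per 100 reads on heavy constant genes this was 10.2, 16.7 and 26.2 in the SLE1.2.3 mice, against 0.29, 0.24 and 0.27 in the control mice. Per 100 reads on the switched constant genes it was 34.7, 27.9 and 32.5 in the SLE1.2.3 mice, against 26.3, 32.0 and 23.7 in the control mice. The groups lay well apart on the measure with Ighm in the denominator and overlapped on the measure without it, although the control ratios rest on 9 to 16 variable reads and 38 to 57 switched reads per library.

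On the log2(FPKM + 1) scale Igkc, the kappa constant gene, had the largest change of the segments tested. It had 56.4, 86.2 and 152 FPKM in SLE1.2.3 mice 1, 2 and 3, against 0.971, 0.695 and 1.64 FPKM in control mice 1, 2 and 3. Its log2 change was 5.47 with a standard error of 0.36 and an adjusted p of 0.00155. The reads numbered 11415 in SLE1.2.3 and 73 in control libraries, a 97.1-fold difference per assigned read, and the call held without each library in turn. Per assigned read Ighg2c, Ighg3 and Ighg1 differed more, by 849-fold, 482-fold and 99.8-fold on 7, 5 and 29 control reads. The ratio of Igkc to the summed FPKM of the switched genes was 1.98, 1.57 and 1.57 in the SLE1.2.3 mice, against 2.24, 2.01 and 3.08 in the control mice.

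The lambda constant genes were low throughout. Iglc1 had 0.713, 0.286 and 0.323 FPKM in SLE1.2.3 mice 1, 2 and 3, against 0 FPKM in each control. Iglc2 had 0.666, 0.238 and 0.305 FPKM in the SLE1.2.3 mice, against 0.422, 0.058 and 0.055 FPKM in the control mice, and the groups overlapped. Iglc3 had 0.027, 0.143 and 0.206 FPKM in the SLE1.2.3 mice, against 0 FPKM in each control, and Iglc4 had 0 FPKM in all 6 libraries. Kappa made up 97.6%, 99.2% and 99.5% of the light chain constant FPKM in the SLE1.2.3 mice, against 69.7%, 92.3% and 96.8% in the control mice. These control shares rest on 26, 21 and 26 Igkc reads and 13, 2 and 1 lambda constant reads.

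Variable genes, which encode most of the antigen-binding domain, were seen in far larger number in SLE1.2.3 libraries. Heavy variable segments with a read numbered 75, 71 and 70 of 108 in SLE1.2.3 mice 1, 2 and 3, against 11, 11 and 6 in control mice 1, 2 and 3. Kappa variable segments with a read numbered 74, 59 and 64 of 106 in the SLE1.2.3 mice, against 14, 9 and 17 in the control mice. At the depth of the shallowest library the expected numbers were 66.3, 66.3 and 65.1 heavy and 68.8, 57.8 and 59.4 kappa segments in the SLE1.2.3 mice, against 7.32, 6.46 and 6 heavy and 9.76, 5.58 and 17 kappa segments in the control mice. No variable segment exceeded 5 reads in any control library. All 46 variable genes tested were below 1 FPKM in every control, so that the filter fixed their direction. Of these 46 genes 33 passed as higher and 13 did not pass, while 9.65% of all genes tested passed as higher.

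The ends of the most abundant variable segments of each locus are shown as the stretch that precedes the junction with a diversity or joining segment. They are the last 60 bases of the GENCODE M21 coding segments, mm10, 5′ to 3′, with the codon of the conserved second cysteine in capitals. They lie at chr12:114288152-114288211, chr12:114788372-114788431 and chr12:115952538-115952597, all minus strand, for the heavy segments, at chr6:68271208-68271267 (plus), chr6:70406469-70406528 (minus) and chr6:69823355-69823414 (minus) for the kappa segments and at chr16:19085017-19085076 (minus) for the lambda segment.
Ighv3-6: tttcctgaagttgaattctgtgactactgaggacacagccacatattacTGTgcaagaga
Ighv1-26: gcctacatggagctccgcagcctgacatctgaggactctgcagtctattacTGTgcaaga
Ighv1-82: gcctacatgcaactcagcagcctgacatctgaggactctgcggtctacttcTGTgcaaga
Igkv1-110: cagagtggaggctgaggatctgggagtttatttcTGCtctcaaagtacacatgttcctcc
Igkv6-15: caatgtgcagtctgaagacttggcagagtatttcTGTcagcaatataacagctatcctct
Igkv5-43: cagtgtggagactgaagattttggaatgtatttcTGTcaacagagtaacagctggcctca
Iglv1: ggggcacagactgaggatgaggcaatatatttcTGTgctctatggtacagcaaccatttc
Each ends within the third complementarity-determining region, closer to the cysteine in the heavy segments than in the kappa and lambda segments. Many variable segments resemble another closely: 213 of 218 matched another segment over at least 90% of their length, the median best identity was 94.2%, and 94 had a partner at 95% or more. Values of single segments are uncertain where reads could be shared, for example Igkv5-43 with Igkv5-45 at 98.4% identity and Ighv1-26 with Ighv1-18 at 96.9%.

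In the heavy locus, Ighv3-6 had 2.88, 1.67 and 15.8 FPKM in SLE1.2.3 mice 1, 2 and 3, against 0 FPKM in each control. With 536 reads in SLE1.2.3 and 0 in control libraries it was at least 111-fold higher per assigned read, taking a floor of 3 reads over the control group. SLE1.2.3 mouse 3 dominated this segment, and its log2 change of 2.48 ± 0.65 (SE) did not pass (adjusted p = 0.0508). Ighv1-26 was more even, with 3.14, 4.02 and 5.80 FPKM in the SLE1.2.3 mice, against 0.057, 0.050 and 0 FPKM in the control mice (log2 change 2.33 ± 0.18 SE, adjusted p = 0.00271). Ighv1-82 had 0.776, 3.78 and 7.69 FPKM in the SLE1.2.3 mice, against 0.051, 0 and 0.174 FPKM in the control mice, and did not pass (log2 change 1.97 ± 0.54 SE, adjusted p = 0.0569). The groups did not overlap for any of the 3 segments. Ighv8-8 had 0.837, 6.75 and 4.13 FPKM and Ighv1-9 had 2.49, 1.02 and 7.74 FPKM in the SLE1.2.3 mice, against 0 FPKM in each control for both. Both passed, with log2 changes of 2.06 and 1.98 and adjusted p of 0.0418 and 0.046. Ighv1-26 kept its call without each library in turn, whereas Ighv8-8 and Ighv1-9 lost theirs when any 1 of the controls was left out.

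In the kappa locus, Igkv1-110 had 5.38, 5.30 and 19.1 FPKM in SLE1.2.3 mice 1, 2 and 3, against 0.099, 0.132 and 0.084 FPKM in control mice 1, 2 and 3 (log2 change 3.08 ± 0.45 SE, adjusted p = 0.0123). Igkv6-15 had 2.28, 4.20 and 16.0 FPKM in the SLE1.2.3 mice, against 0.057, 0 and 0 FPKM in the control mice (log2 change 2.70 ± 0.57 SE, adjusted p = 0.0298). Igkv5-43 had 2.15, 3.38 and 15.9 FPKM in the SLE1.2.3 mice, against 0 FPKM in each control (log2 change 2.62 ± 0.59 SE, adjusted p = 0.0357). In all 3 segments SLE1.2.3 mouse 3 lay at several times the level of mice 1 and 2. Igkv3-2 differed from these in being even across the group, with 4.60, 3.60 and 4.65 FPKM in the SLE1.2.3 mice, against 0.053, 0 and 0 FPKM in the control mice (log2 change 2.37 ± 0.11 SE, adjusted p = 0.000327). Igkv10-96 passed with 1.03, 3.66 and 10.1 FPKM in the SLE1.2.3 mice, against 0 FPKM in each control (adjusted p = 0.0473). Igkv12-46 had 2.07, 1.25 and 14.1 FPKM in the SLE1.2.3 mice, against 0.053, 0 and 0 FPKM in the control mice, and did not pass (adjusted p = 0.0737). Igkv3-2 kept its call without each library in turn, and the other 4 called segments named here lost theirs when any 1 of the controls was left out.

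Among the lambda variable genes, Iglv1 had 1.62, 1.62 and 2.38 FPKM in SLE1.2.3 mice 1, 2 and 3, against 0 FPKM in each control, on 53, 39 and 70 reads in the SLE1.2.3 mice. It was at least 33.5-fold higher per assigned read against the same floor of 3 reads. Its mean over the 6 libraries was just under the filter, and in the fit without a filter its adjusted p was 0.0152. Iglv2, which is 97.0% identical to Iglv1, had 2, 2 and 0 reads in the SLE1.2.3 mice, against 4, 1 and 0 reads in the control mice. Iglv3 had 3, 3 and 5 reads in the SLE1.2.3 mice, against 0, 2 and 0 reads in the control mice.

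**Figure D3:**
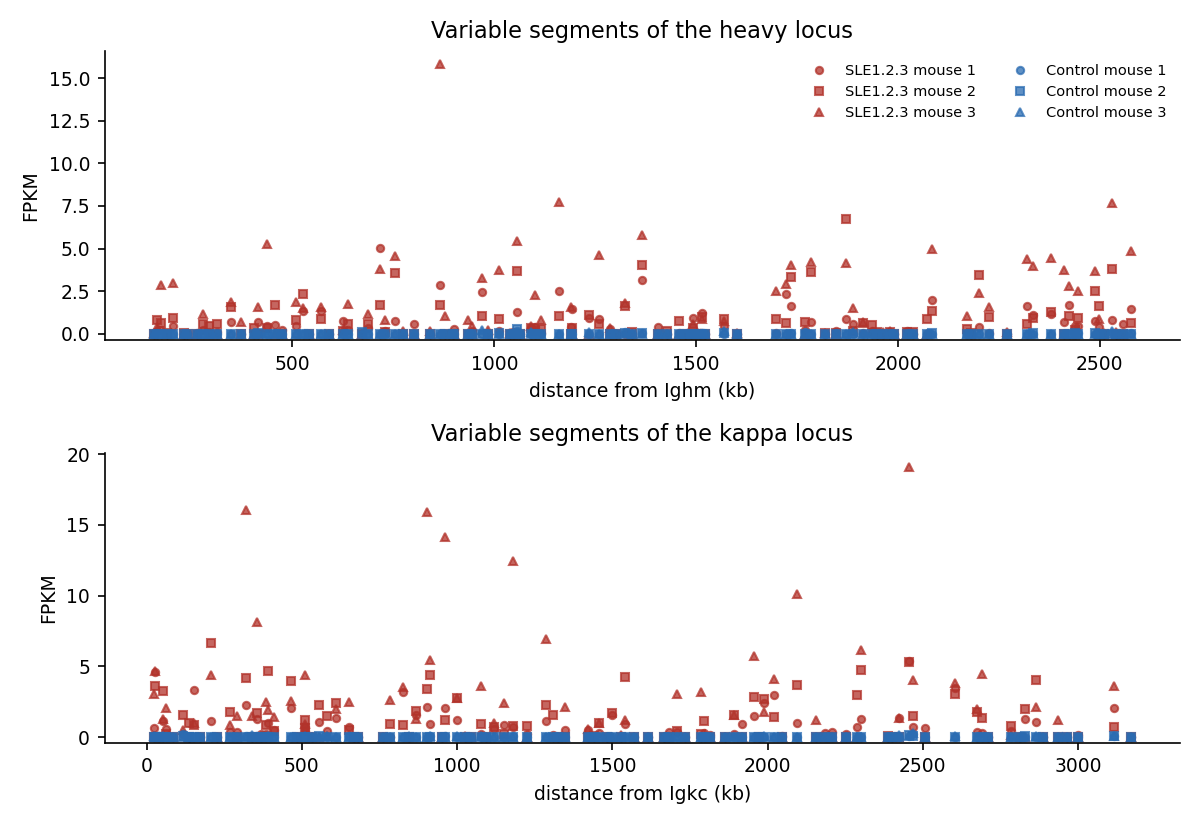
FPKM of each variable segment against its distance in kb from the constant gene, Ighm for the heavy and Igkc for the kappa locus, with SLE1.2.3 libraries in red and control libraries in blue. Red points stand along the whole length of both loci and reach 15.8 FPKM (heavy) and 19.1 FPKM (kappa) in SLE1.2.3 mouse 3, while blue points lie at or near 0.

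Use was spread over the length of both loci and over many segments in each SLE1.2.3 mouse. When the 108 heavy segments were divided by distance from Ighm into 3 groups of 36, the farthest group held 32.6%, 48.1% and 40.1% of heavy variable reads in SLE1.2.3 mice 1, 2 and 3. The nearest group held 31.9%, 26.6% and 31.6%. For kappa, the 35 farthest segments held 40.0%, 35.2% and 33.6% and the 36 nearest held 37.0%, 38.5% and 30.9%. The Ighv1 family, the largest of the mouse with 57 segments here, held 58.1%, 56.0% and 55.0% of heavy variable reads, against 52.8% of the segments.

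The most used heavy segment was another in each SLE1.2.3 mouse: Ighv9-3 with 8.66% of heavy variable reads in mouse 1, Ighv8-8 with 8.68% in mouse 2 and Ighv3-6 with 9.33% in mouse 3. For kappa it was Igkv1-110 with 7.81% in mouse 1 and 9.44% in mouse 3, and Igkv3-12 with 5.60% in mouse 2. The 10 most used segments held 44.2%, 48.7% and 41.2% of heavy and 43.3%, 40.3% and 52.9% of kappa variable reads. The effective number of segments, the inverse of the summed squared shares, was 32.9, 30.8 and 32.7 for heavy and 34.3, 36.7 and 25.6 for kappa in SLE1.2.3 mice 1, 2 and 3. Of the 10 most used heavy segments 2, 4 and 4 were shared between mice 1 and 2, 1 and 3, and 2 and 3, and Ighv1-26 was in all 3 lists. Of the 10 most used kappa segments 3, 3 and 4 were shared between the same pairs, and Igkv1-110 and Igkv6-15 were in all 3 lists. Control libraries, with 9 to 16 heavy and 13 to 23 kappa variable reads, held too few of these reads for such shares.

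**Figure D4:**
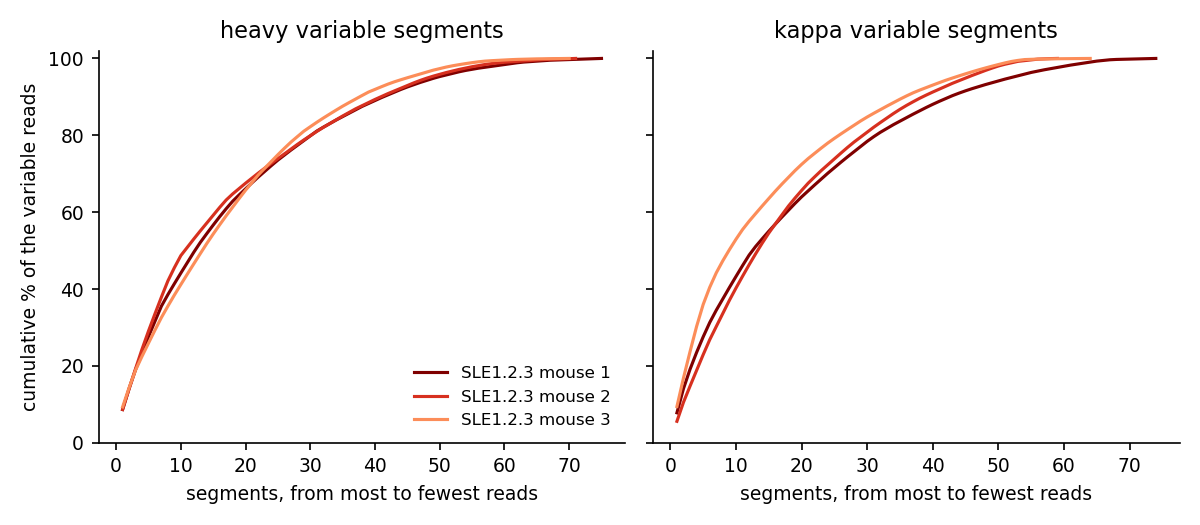
Cumulative percentage of variable reads against the rank of the segment, heavy left and kappa right, for the 3 SLE1.2.3 mice. The heavy curves nearly coincide, with the top 10 segments at 41.2% to 48.7%, and the kappa curve of mouse 3 lies above those of mice 1 and 2, with 52.9% at 10 segments.

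Variable pseudogenes, segments that cannot give a full chain, stayed at the level of a few reads. The 23 together had 9, 8 and 13 reads in SLE1.2.3 mice 1, 2 and 3, against 1 read in each control, and none reached the filter. The heavy pseudogenes made up 0.53%, 0.291% and 0.202% of heavy variable reads in the SLE1.2.3 mice, where 12 of 108 heavy variable segments are pseudogenes. The pseudogene on chromosome 19, Gm50427, had 1 read in control mouse 2 and 0 elsewhere. Kappa variable reads stood in nearly equal number to Igkc reads, at 92.0, 93.4 and 100 per 100 Igkc reads in the SLE1.2.3 mice, against 88.5, 61.9 and 80.8 in the control mice, the control values resting on 13 to 23 variable reads.

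Joining and diversity segments are short and drew few reads, and heavy and kappa joining genes differed in pattern. A joining segment supplies the end of the variable exon and carries the motif that keeps its fold. The 4 heavy joining genes, the 5 kappa joining genes and Ighd4-1, the diversity gene nearest to them, are shown because the reads on them were set beside the variable and constant reads. Sequences are from GENCODE M21, mm10, 5′ to 3′, with capitals for the motif TGGGGNNNNGGN in heavy and TTCGGNNNNGGN in kappa segments, searched on the coding strand. The heavy segments lie on the minus strand at chr12:113430528-113430538, chr12:113429781-113429833, chr12:113429468-113429515, chr12:113429085-113429132 and chr12:113428514-113428567 in the order printed. The kappa segments lie on the plus strand at chr6:70722562-70722599, chr6:70722916-70722954, chr6:70723223-70723260, chr6:70723548-70723585 and chr6:70723886-70723923.
Ighd4-1: ctaactgggac
Ighj1: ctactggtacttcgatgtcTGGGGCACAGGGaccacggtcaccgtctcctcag
Ighj2: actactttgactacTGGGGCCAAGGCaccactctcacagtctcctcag
Ighj3: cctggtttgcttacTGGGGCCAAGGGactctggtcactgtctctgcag
Ighj4: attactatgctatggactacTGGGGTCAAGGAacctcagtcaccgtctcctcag
Igkj1: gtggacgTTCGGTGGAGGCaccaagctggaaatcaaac
Igkj2: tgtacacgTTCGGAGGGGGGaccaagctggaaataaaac
Igkj3: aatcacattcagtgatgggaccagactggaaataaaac
Igkj4: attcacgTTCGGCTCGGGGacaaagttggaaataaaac
Igkj5: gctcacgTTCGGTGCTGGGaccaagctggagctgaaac
Igkj3 lacks these letters. Of 267 variable transcripts 0 held either motif in their first 54 bases, the end away from the junction, and the rest was not searched.

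The heavy joining genes had reads in all 6 libraries. Ighj1 had 9.50, 3.36 and 3.52 FPKM in SLE1.2.3 mice 1, 2 and 3, against 6.37, 8.30 and 1.27 FPKM in control mice 1, 2 and 3. Ighj4 had 8.88, 1.80 and 4.93 FPKM in the SLE1.2.3 mice, against 4.41, 8.48 and 3.74 FPKM in the control mice. The groups overlapped for both. Ighj2 and Ighj3 had 0.162 to 4.49 FPKM in SLE1.2.3 and 1.06 to 4.97 FPKM in control libraries, also overlapping. None of the 4 passed in limma, with log2 changes between -0.59 and 0.14, and the counts at an unadjusted p under 0.05 and by limma voom were both 0. With array weights Ighj2, Ighj3 and Ighj4 passed as lower, at log2 changes of -1.08, -1.09 and -1.17, and without SLE1.2.3 mouse 1 Ighj2 did, at -0.90 (adjusted p = 0.0149). Ighd4-1, a segment of 11 bases, had 26.1, 2.95 and 4.84 FPKM on 24, 2 and 4 reads in the SLE1.2.3 mice, against 23.5, 4.80 and 21.4 FPKM on 13, 3 and 7 reads in the control mice.

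Set against the other heavy reads, joining reads went with Ighm more than with variable segments. Per 100 Ighm reads there were 0.968, 0.515 and 1.37 heavy joining reads in SLE1.2.3 mice 1, 2 and 3, against 0.985, 0.984 and 0.521 in control mice 1, 2 and 3. Per 100 heavy variable reads there were 6.66, 1.22 and 1.01 in the SLE1.2.3 mice, against 333, 400 and 189 in the control mice. The groups overlapped on the first ratio and lay far apart on the second. How a read across a variable-joining junction was assigned is not stated in the labels.

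The kappa joining genes had 29, 9 and 31 reads in SLE1.2.3 mice 1, 2 and 3, against 2, 0 and 0 reads in control mice 1, 2 and 3, so 2 of the 5 genes were higher without overlap. The control reads were all on Igkj5. Igkj5 had 3.42, 0.772 and 2.22 FPKM in the SLE1.2.3 mice, against 0.946, 0 and 0 FPKM in the control mice, and did not pass (adjusted p = 0.0862). The lambda joining genes had 2 reads in SLE1.2.3 and 0 in control libraries.

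Genes outside the immunoglobulin loci were set beside the segments from lists of named genes. Of all 11378 genes tested in limma, 9.65% were higher and 5.58% lower. Of 16 plasma cell and antibody secretion genes 12 were tested, 6 were higher, 1 was lower and 5 did not pass, with a median log2 change of 0.39 against 0.01 over all genes tested. At an unadjusted p under 0.05, 7 were higher and 5 lower, and the list's summed FPKM was 325 to 389 in SLE1.2.3 and 409 to 472 in control libraries. Jchain, the chain that joins IgM and IgA into polymers, had 1.91, 3.34 and 5.09 FPKM in SLE1.2.3 mice 1, 2 and 3, against 0.071, 0.042 and 0.053 FPKM in control mice 1, 2 and 3 (log2 change 2.01 ± 0.26 SE, adjusted p = 0.00938). Prdm1, which encodes Blimp-1 of plasma cells and effector T cells, had 5.19, 13.5 and 19.0 FPKM in the SLE1.2.3 mice, against 0.406, 0.555 and 0.627 FPKM in the control mice (log2 change 2.99 ± 0.41 SE, adjusted p = 0.0104). Both were higher in every SLE1.2.3 library than in every control. Both were also below 1 FPKM in every control, so that the filter fixed their direction. Edem1, Derl3, Sec11c and Txndc5, which act in secretory protein quality control and processing, rose by 0.30 to 0.89 on the log2 scale. Xbp1, a secretory transcription factor, was lower (log2 change -0.67 ± 0.14 SE, adjusted p = 0.0293), with 54.6, 47.4 and 43.0 FPKM in the SLE1.2.3 mice, against 91.7, 74.4 and 67.2 FPKM in the control mice. Irf4, Pim2, Eaf2 and Tnfrsf13b had log2 changes of -1.02, -1.30, -0.89 and -0.86 and did not pass. The list's calls numbered 0 without SLE1.2.3 mouse 2 or control mouse 2, 1 without control mouse 1 or 3 and 12, of them 7 higher and 5 lower, without SLE1.2.3 mouse 1.

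Plasma cell markers of low level gave no test. Mzb1, a chaperone of antibody-secreting cells, had 0.345, 0.160 and 0.329 FPKM in SLE1.2.3 mice 1, 2 and 3, against 0.049, 0.043 and 0.083 FPKM in control mice 1, 2 and 3. Sdc1, the surface marker CD138, had 0.506 to 0.557 FPKM in SLE1.2.3 and 0.406 to 0.511 FPKM in control libraries. Tnfrsf17, the plasma cell survival receptor BCMA, was at 0 in SLE1.2.3 mice 2 and 3 and in control mice 1 and 2, and at 0.029 and 0.041 FPKM in the others. Of the 3, Mzb1 alone was higher without overlap.

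In limma 9.65% of all genes tested were higher and 5.58% lower. Of 21 B cell identity genes 5 were tested, 4 were higher, 0 were lower in limma, and 13 were below 1 FPKM in every library. None was lower at an unadjusted p under 0.05 or by limma voom, where 2 were higher. The calls numbered 0 when SLE1.2.3 mouse 2 or any 1 of the controls was left out and 2 without SLE1.2.3 mouse 3. The list's summed FPKM was 58.2 to 71.3 in SLE1.2.3 and 27.2 to 28.6 in control libraries. Blk, a kinase gene that γδ T cells also express, Cd72, Cd24a and the receptor subunit gene Cd79b had log2 changes of 3.24, 1.02, 1.00 and 0.69. Blk was below 1 FPKM in every control, so that the filter fixed its direction. Cd24a, at 38.4, 39.8 and 23.7 FPKM in SLE1.2.3 mice 1, 2 and 3 against 15.9, 16.0 and 16.3 FPKM in control mice 1, 2 and 3, made up much of that sum. Of all 21 genes, 7 were higher and 2 lower in SLE1.2.3 without overlap of the groups. Over all 30034 features with a read, 4507 were higher and 3278 lower in this way. The 2 lower ones were the IgM receptor gene Fcmr, with 0.690, 0.140 and 0.054 FPKM in the SLE1.2.3 mice, against 2.13, 1.56 and 1.12 FPKM in the control mice, and Cr2, with 0.011 to 0.024 FPKM in SLE1.2.3 and 0.026 to 0.051 FPKM in control libraries. Ms4a1, the CD20 gene, had 0.016 to 0.043 FPKM in SLE1.2.3 and 0.003 to 0.006 FPKM in control libraries. Cd79a had 1.62, 0.645 and 1.13 FPKM in the SLE1.2.3 mice, against 0.764, 0.628 and 1.11 FPKM in the control mice. The part of B cells and plasma cells in the immunoglobulin values was not tested.

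Genes linked to the rearrangement or switch of the loci were also set beside the segments. Over all 11378 genes tested 15.2% passed in limma. Of 13 class switch and hypermutation genes 11 were tested, with the transcription factor Batf higher and the repair genes Msh6 and Xrcc5 lower, at log2 changes of 0.92, -0.38 and -0.58. Of 8 recombinase genes 5 were tested and 0 passed in limma, 1 at an unadjusted p under 0.05 and 0 by limma voom. Rag2 was at 0 in all 6 libraries and Rag1 at 0 to 0.003 FPKM. Of the surrogate light chain and B precursor genes 5 of 6 symbols matched, 3 were tested and 0 passed in limma, 1 at an unadjusted p under 0.05 and 0 by limma voom. None of the 12 immunoglobulin receptor genes reached the filter, and the highest, the IgE receptor gene Fcer1a, had 0.973, 0.845 and 2.65 FPKM in the SLE1.2.3 mice, against 0.020, 0.035 and 0.101 FPKM in the control mice.

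Genes of other T cells moved with the same libraries. Trdc, the constant gene of the T cell receptor delta chain, had 4.96, 18.9 and 45.2 FPKM in SLE1.2.3 mice 1, 2 and 3, against 0.627, 0.661 and 0.592 FPKM in control mice 1, 2 and 3. Cd4 had 257, 144 and 71.6 FPKM in the SLE1.2.3 mice, against 246, 264 and 253 FPKM in the control mice. SLE1.2.3 mouse 3 thus had the highest Igkc and Trdc and the lowest Ighm and Cd4 of the 6 libraries, and mouse 1 the lowest Igkc and Trdc of its group. The 8 γδ and innate-like T cell genes summed to 55.5 to 568 FPKM in SLE1.2.3 and 2.86 to 3.15 FPKM in control libraries. In limma 7 were higher and 0 lower, against 9.65% higher and 5.58% lower over all genes tested. Of these 8 genes 7 were below 1 FPKM in every control, so that the filter fixed their direction, and 1 was higher and 0 lower by limma voom. Of the 7 CD8 T and NK cell genes 4 were tested and 2 were higher. Of these 4, 2 were below 1 FPKM in every control, so that the filter fixed their direction. The 11 myeloid and dendritic cell genes, with 1 higher and 1 lower, summed to 8.75 to 14.0 FPKM in SLE1.2.3 and 8.46 to 9.83 FPKM in control libraries. The higher myeloid gene was below 1 FPKM in every control too. The 13 T cell identity genes summed to 2315 to 3138 FPKM in SLE1.2.3 and 2849 to 2985 FPKM in control libraries. They and the 7 tested of 10 MHC class II genes had 0 passing in limma. At an unadjusted p under 0.05, 2 T cell identity genes were higher and 2 MHC class II genes were lower, and 0 of either passed by limma voom. The part of these cells in the immunoglobulin values was not tested.

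**Figure D5:**
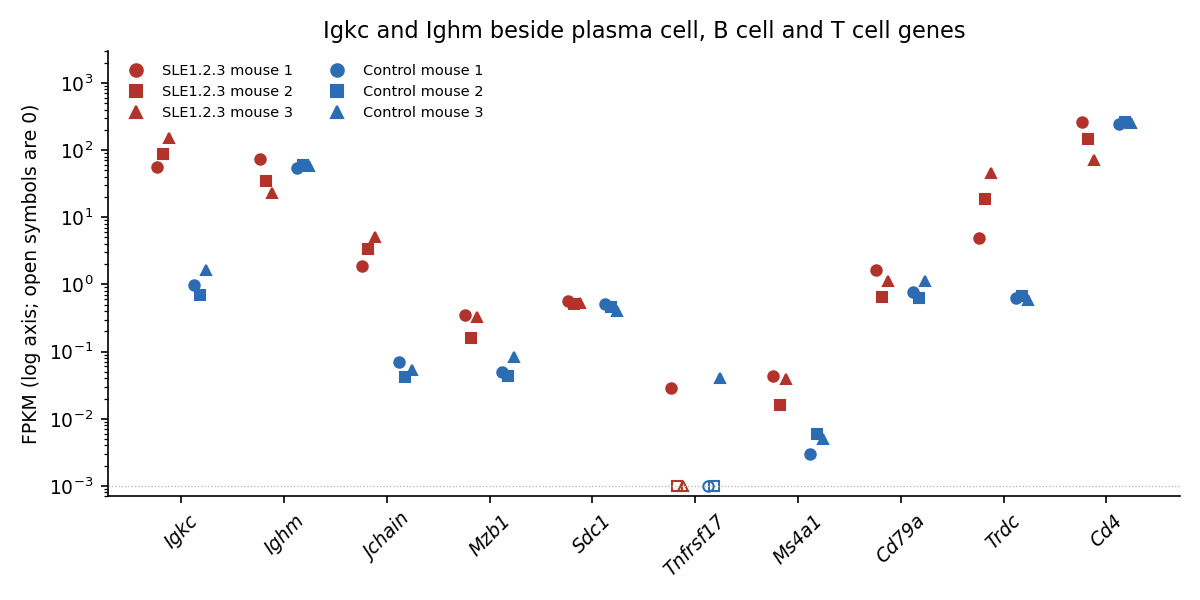
FPKM of Igkc and Ighm beside plasma cell (Jchain, Mzb1, Sdc1, Tnfrsf17), B cell (Ms4a1, Cd79a) and T cell (Trdc, Cd4) genes in each library on a log axis, SLE1.2.3 mice left and control mice right of each gene, with open symbols for 0. Igkc, Jchain and Trdc are each highest in SLE1.2.3 mouse 3, and Cd79a overlaps between the groups.

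By likeness of log2(FPKM + 1) over the 6 libraries, the genes outside the loci closest to Igkc were Gm21399, Ccr1, Gm16589, Olfr60 and Cyfip1, with Pearson correlations of 0.995 to 0.996. The libraries fall into 2 groups that also differ in depth, so this is a description only. Ccr1, a chemokine receptor gene, had 23.8, 35.1 and 46.7 FPKM in SLE1.2.3 mice 1, 2 and 3, against 2.48, 2.18 and 2.09 FPKM in control mice 1, 2 and 3.

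Features within the loci that are not immunoglobulin segments were few. The heavy locus held 15, with up to 6.88 FPKM in a library, the kappa locus 13, with up to 0.685 FPKM, and the lambda locus 3, with up to 0.082 FPKM. Gm25747 and Gm22175 in the heavy locus were the only ones to reach the filter, and neither passed in limma.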

How the data were processed

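FPKM, the unit used throughout, was computed and deposited by the authors for 33300 features in 6 libraries, 3 of SLE1.2.3 and 3 of control mice. Per the submitters' processing notes, cutadapt 2.10, STAR 2.7.3a and featureCounts 2.0.0 were used with build mm10. For the strand setting and for reads with several matches, the choice made is not stated there. All 248 segment IDs matched GENCODE M21.

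Read counts were recovered from the steps of the deposited FPKM values. In each library 100% of the low values checked were whole to a tolerance of 0.15 reads. Floors of 3 reads cover counting error only.

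Genes averaging 1 FPKM or more were fitted as log2(FPKM + 1) with limma 3.58.1 in R 4.3.3 (empirical Bayes with trend, genotype alone), with Benjamini-Hochberg adjustment over all 11378 genes at 0.05. The scripts were tested on simulated data. Python 3.11.15, pandas 2.3.3 and blastn 2.17.0 gave the summaries and identities. The labels name separate mice, so a p-value reflects the spread from mouse to mouse.

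The segments, gene lists and alternatives were chosen with earlier results of these data known. Named were all constant genes, the joining and diversity genes, the 5 variable segments of highest mean FPKM per locus, the 10 largest called changes without overlap, up to 5 called genes of the B cell, plasma cell and class switch lists and the 5 genes most like Igkc. Lists of other genes are given mainly by their counts. The most used segment of each mouse and the markers Ms4a1, Cd79a, Mzb1, Sdc1, Tnfrsf17, Rag1, Rag2, Fcer1a, Fcmr, Cr2, Irf4, Pim2, Eaf2, Tnfrsf13b, Trdc and Cd4 were named after their values were seen.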

Additional observations from a re-analysis of the deposited data

How the results depend on the processing

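All called segments were higher in SLE1.2.3 under each alternative except array weights and the fit without SLE1.2.3 mouse 1, while their number varied. Against 39 called segments, 24 were called with no filter on low values (15 of them among the 39), 3 with a mean of at least 5 FPKM (of 7 tested) and 25 with the replicate block, a paired fit on the mouse number (24 of them among the 39). The same-numbered mice did not pair: the correlations of their deviations were -0.004, 0.1001 and 0.0914 for mice 1, 2 and 3. Leaving out 1 library gave 10 to 50 called, the highest without SLE1.2.3 mouse 1 (48 higher and 2 lower), and array weights gave 50 higher and 5 lower. Rescaling to a common FPKM sum, which moved the median of all genes by 0.10 on the log2 scale, gave 54, the other scalings 38 to 39 and limma voom 37. Of the B cell identity list 4 genes were called, against 0 with no filter, 2 by limma voom, 2 without SLE1.2.3 mice 2 and 3 together and 0 to 4 with 1 library left out. Of the plasma cell and antibody secretion list 7 were called, against 2 with no filter, 12 with array weights, 3 without SLE1.2.3 mice 2 and 3 together and 0 to 12 with 1 library left out. The log2 ratio of immunoglobulin reads was 1.58, and 2.30 with FPKM summed over the segments.

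Without SLE1.2.3 mice 2 and 3 together, log2 changes turned to 0.36 for Ighm, 0.66 for Ighj4, 0.34 for Ighj3, 0.0409 for Ighj2 and 0.88 for Ighd4-1. With array weights Ighj1 turned to -0.34. With 1 library left out, Ighj4 ran between -0.61 and 0.29 and Ighj1 between -0.49 and 0.53. Ighg2c lost its call by limma voom alone (adjusted p = 0.0509, log2 change 9.43), and Ighg3 lost it there too and with no filter. Where no other value shows it, the cause of a change was not tested. Depth limits the controls most, with 29.7 units of 1000000 assigned reads in control mouse 3.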
